A study of Mus musculus with 6 samples.

Results

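The 10 genes described here mark vascular endothelium, the cells that line blood vessels, and were taken as a measure of the vessel content of the outer eye wall. They are Pecam1, Cdh5, Plvap, Emcn, Tie1, Eng, Esam, Egfl7, Vwf and Ramp2, chosen by name among the 22180 genes that had at least 1 probe set annotated with a single symbol. All 10 were measured, each through its only probe set of that kind. The tissue dissected was the outer eye wall: the retinal pigment epithelium (RPE) together with choroid and sclera. Of the 6 samples, 3 were taken from 5XFAD mice, heterozygous for the transgene, a model of amyloid disease that carries human familial Alzheimer mutations driven by the neuronal Thy1 promoter. The other 3 were taken from wild-type littermates without the transgene. All animals were 12 months old and received no treatment, and 1 microarray was hybridised per sample. Neither pooling of animals nor separate animals per sample is stated in the labels, and the p-values below speak of sample-to-sample spread only, part of which can be technical.

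The choroid is the vascular coat behind the RPE. Its inner capillary bed, the choriocapillaris, has a wall pierced by fenestrae, through which the RPE and the outer retina are supplied, whereas retinal vessels form a closed barrier. Plvap encodes the protein of the diaphragms that span such fenestrae and is scarce in barrier endothelium, while most of the other markers belong to endothelium of nearly every vessel bed. The question put to the arrays was whether vessel content, and the fenestrated marker relative to the pan-endothelial ones, differed between aged transgenic and wild-type mice.

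What the markers share in sequence was looked at in RefSeq promoter windows (GRCm38.p6, 250 bases before to 50 after a start), since endothelial genes are known targets of ETS factors such as Erg and Fli1. Windows were matched for 4 of the 10 genes, 1 each for Emcn, Tie1 and Eng and 3 for Egfl7. The core letters of ETS recognition, GGAA, were searched on both strands, and a match on the reverse strand reads TTCC. The windows of Emcn (chr3:137340828-137341127, plus strand) and Tie1 (chr4:118489800-118490099, minus strand) are shown because they held the most matches, with the matches in capitals.
Emcn: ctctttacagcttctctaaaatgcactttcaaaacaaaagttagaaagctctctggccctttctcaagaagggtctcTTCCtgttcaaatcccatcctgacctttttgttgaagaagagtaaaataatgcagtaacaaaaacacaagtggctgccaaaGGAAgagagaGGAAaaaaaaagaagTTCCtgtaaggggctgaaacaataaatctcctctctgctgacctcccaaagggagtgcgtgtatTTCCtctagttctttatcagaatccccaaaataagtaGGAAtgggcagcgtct
Tie1: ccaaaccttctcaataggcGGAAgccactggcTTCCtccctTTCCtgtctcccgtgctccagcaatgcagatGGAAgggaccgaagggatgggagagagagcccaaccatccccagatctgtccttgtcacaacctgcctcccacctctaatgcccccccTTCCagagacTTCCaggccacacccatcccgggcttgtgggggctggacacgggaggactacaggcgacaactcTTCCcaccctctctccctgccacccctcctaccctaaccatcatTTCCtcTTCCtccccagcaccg
The Tie1 window held 9 matches and the Emcn window 6, against 4 in that of Eng and 5, 4 and 1 in those of Egfl7. Over 32851 windows of the same length 96% held at least 1 match, with a median of 3, so that presence alone says little. The longer form CGGAAG, which contains the core, occurred in 1 of the 6 windows, that of Tie1, against 16.9% of all windows. No window held TATAAA (13.6% of all windows) or the forkhead letters GTAAACA (3.65%). GGGCGG, the letters of an SP1 site, occurred 4 times in the third Egfl7 window, against 35.7% of windows with at least 1. That window also stood apart in its composition, with 31 CG pairs against a median of 7 over all windows.

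Egfl7 further carries an endothelial microRNA, miR-126, in an intron. Its mature 3′ arm, from the plus strand at chr2:26591402-26591423 (RefSeq, GRCm38.p6), is shown because it explains a naming limit, with the seed, bases 2 to 8, in capitals.
mmu-miR-126a-3p: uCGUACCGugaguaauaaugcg
A further probe set is annotated with both Mir126a and Egfl7, and another with both Vps25 and Ramp2. Neither was used, and the Egfl7 and Ramp2 values below come from the probe sets that name these genes alone.

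Signals were normalized log2 intensities, on which a difference of 1 is a doubling. Array medians lay between 5.59 and 5.71, and arrays correlated at 0.981 to 0.990 within groups and 0.983 to 0.990 between groups across all probe sets. The 10 markers had mean signals between the percentiles 69.9 (Esam) and 99.4 (Emcn) of all genes. In bulk tissue fewer endothelial cells and less RNA per cell cannot be told apart, and the markers are shared by vessels of choroid, sclera, eye muscle and any retina carried along. Genes that define the dissected layers were bright, with median signals of 11.04 over 11 RPE genes and 10.25 over 10 fibroblast and sclera genes. Tests were made with limma over all 22180 genes, with Benjamini-Hochberg adjustment.

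None of the 10 markers differed between the groups past the adjusted threshold of 0.05. Differences ran from -0.17 for Plvap to 0.12 for Egfl7, with 5 markers above and 5 below zero and a median of -0.03, against a median of -0.01 over all genes. The lowest adjusted p was 0.918 and the lowest unadjusted p 0.172 (limma, both Plvap). Over all genes 0.0225% passed the adjusted threshold, a background too low for a count of 0 of 10 to set the markers apart. At an unadjusted p under 0.05 there were also 0 of 10 markers, against 6.28% of all genes. For 0 of 10 markers did the 3 values of each group stand apart without overlap, against 11.3% of all genes. A missed threshold does not show that levels were equal, and the 95% intervals give the sizes left: over the 10 markers they reached from 0.733-fold (Vwf) to 1.35-fold (Egfl7).

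**Figure D1:**
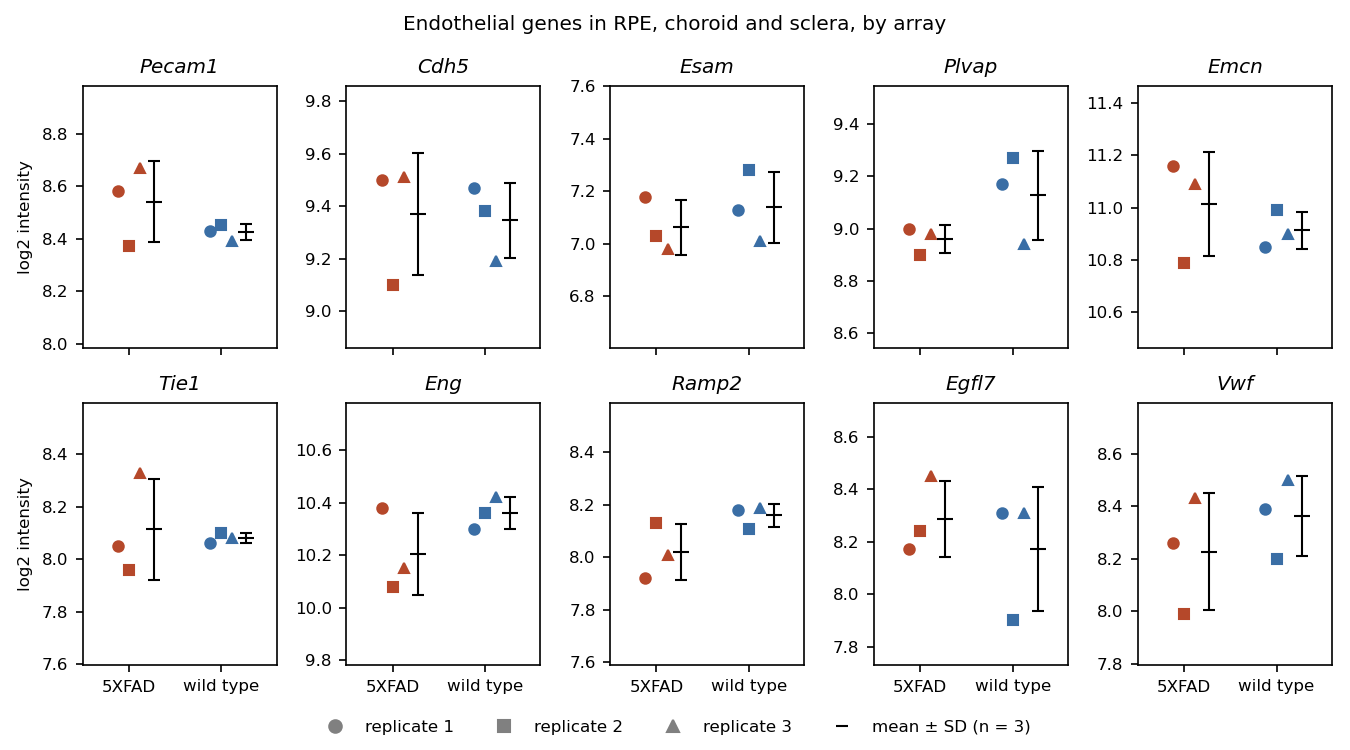
Log2 intensity of the 10 endothelial markers in each array, 5XFAD in red and wild type in blue, with the mean and SD of 3 arrays beside the points. Every panel spans 1 log2 unit, and in each of them the values of both groups overlap.

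Junction genes hold endothelial cells together. Pecam1, the adhesion molecule CD31 at endothelial contacts, had log2 signals of 8.58, 8.37 and 8.67 in 5XFAD tissue, against 8.43, 8.45 and 8.39 in wild type. The difference was 0.11 ± 0.11 (± SE, n = 3 per group, limma, Benjamini-Hochberg adjusted p = 0.933). 5XFAD replicates 1 and 3 lay above all wild-type arrays and replicate 2 below them, so that the SD was 0.15 in 5XFAD and 0.03 in wild type. Cdh5, which encodes VE-cadherin, the adhesive core of endothelial adherens junctions, had 9.50, 9.10 and 9.51 in 5XFAD, against 9.47, 9.38 and 9.19 in wild type. Its difference was the smallest of the 10, at 0.02 ± 0.14 (limma, Benjamini-Hochberg adjusted p = 0.99), with 5XFAD replicate 2 again the lowest array. Esam, an adhesion molecule of endothelial tight junctions that platelets also carry, had 7.18, 7.03 and 6.98 in 5XFAD and 7.13, 7.28 and 7.01 in wild type. It differed by -0.08 ± 0.11 (limma, Benjamini-Hochberg adjusted p = 0.961), and its arrays were intermixed. The Esam difference was -0.01 without wild type replicate 2, -0.04 without 5XFAD replicate 3, -0.13 when 5XFAD replicate 1 was left out and -0.14 when wild type replicate 3 was.

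Plvap, the diaphragm gene of fenestrated capillaries, had the most negative difference of the 10 without passing. Its log2 signals were 9.0, 8.90 and 8.98 in 5XFAD, against 9.17, 9.27 and 8.94 in wild type. The 3 5XFAD arrays lay close together and below wild type replicates 1 and 2, while wild type replicate 3 fell among them. The difference of -0.17 ± 0.11 is a 0.891-fold level with a 95% interval of 0.747 to 1.06 (limma, Benjamini-Hochberg adjusted p = 0.918). The size of this value depended on single wild-type arrays. Without wild type replicate 3, the low one, the difference was -0.26 ± 0.11 (limma, unadjusted p = 0.0427, Benjamini-Hochberg adjusted p = 0.924), and without wild type replicate 2, the high one, it was -0.10 ± 0.12.

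Beside the pan-endothelial genes, Plvap was taken within each array as its signal minus the mean of the other 9 markers, a log2 quantity in which a change common to all vessels cancels. It was 0.20, 0.27 and 0.13 in 5XFAD and 0.38, 0.51 and 0.16 in wild type. The means were 0.20 ± 0.07 and 0.35 ± 0.18 (SD, n = 3 each), a difference of -0.15 that came with overlapping groups. The difference was -0.25 when wild type replicate 3 was left out and -0.07 when wild type replicate 2 was. With the mean of the other 9 markers as a covariate in the fit, the Plvap difference was -0.16 ± 0.12 (limma, Benjamini-Hochberg adjusted p = 0.95).

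Emcn encodes endomucin, a sialomucin of the luminal coat of capillaries and veins. Its signals were 11.16, 10.79 and 11.09 in 5XFAD, against 10.85, 10.99 and 10.90 in wild type, a difference of 0.11 ± 0.12 (limma, Benjamini-Hochberg adjusted p = 0.95). The pattern was that of Pecam1, with 5XFAD replicates 1 and 3 above every wild-type array and replicate 2 below. Without 5XFAD replicate 2 the differences of Emcn and Pecam1 were 0.22 ± 0.11 and 0.20 ± 0.11 (limma, Benjamini-Hochberg adjusted p = 0.958 for both). Other omissions made them smaller, with Emcn at 0.03 without 5XFAD replicate 1 and at 0.07 without 5XFAD replicate 3 or wild type replicate 1, and Pecam1 at 0.05 without 5XFAD replicate 3.

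Among the receptors, Tie1 is the orphan partner of the angiopoietin receptor Tek. Its signals were 8.05, 7.96 and 8.33 in 5XFAD, against 8.06, 8.10 and 8.08 in wild type, where the SD was 0.02. The difference was 0.03 ± 0.12 (limma, Benjamini-Hochberg adjusted p = 0.979). Eng encodes endoglin, the co-receptor through which BMP9 and TGF-beta act on Acvrl1, and mutations in its human counterpart cause hereditary haemorrhagic telangiectasia. It had 10.38, 10.08 and 10.15 in 5XFAD, against 10.30, 10.36 and 10.42 in wild type. With 5XFAD replicates 2 and 3 below all wild-type arrays and replicate 1 among them, the difference was -0.16 ± 0.11 (limma, Benjamini-Hochberg adjusted p = 0.922). Without 5XFAD replicate 1 it was -0.24 ± 0.11 (limma, Benjamini-Hochberg adjusted p = 0.979), and without 5XFAD replicate 2 it was -0.10 ± 0.12. Ramp2 turns the receptor Calcrl into a receptor for adrenomedullin, a peptide that keeps the endothelial barrier tight. Its signals were 7.92, 8.13 and 8.01 in 5XFAD, against 8.18, 8.11 and 8.19 in wild type. Ramp2 had the narrowest interval of the 10, and its difference of -0.14 ± 0.10 corresponds to 0.775- to 1.06-fold (limma, Benjamini-Hochberg adjusted p = 0.922). Leaving out 5XFAD replicate 1 gave -0.09, and leaving out 5XFAD replicate 2 gave -0.20.

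The secreted markers had differences of opposite sign, both within the spread. Egfl7, a matrix factor that endothelial cells deposit around growing tubes, had 8.17, 8.24 and 8.45 in 5XFAD, against 8.31, 7.90 and 8.31 in wild type. The difference of 0.12 ± 0.14 (limma, Benjamini-Hochberg adjusted p = 0.953) rested on wild type replicate 2, the lowest array, without which it was -0.02. Vwf encodes von Willebrand factor, the platelet-tethering protein that endothelium stores in Weibel-Palade bodies and that is richer in veins than in capillaries. Its signals were 8.26, 7.99 and 8.43 in 5XFAD, against 8.39, 8.20 and 8.50 in wild type, a difference of -0.14 ± 0.14 (limma, Benjamini-Hochberg adjusted p = 0.939). Here 5XFAD replicate 2 was the low array, and without it the difference was -0.02 ± 0.13. It was -0.07 without wild type replicate 3, -0.22 without wild type replicate 2 and -0.24 without 5XFAD replicate 3.

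**Figure D2:**
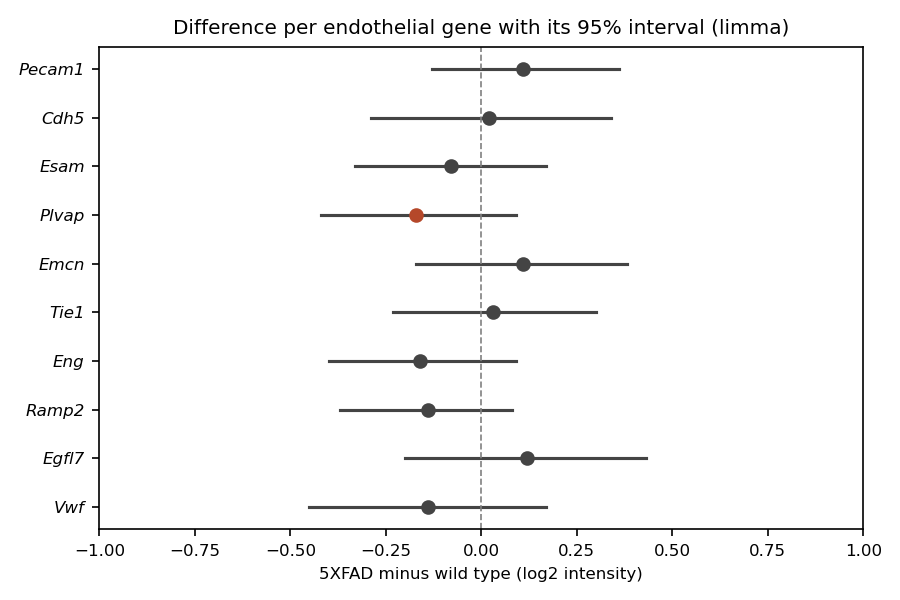
Difference of each marker, 5XFAD minus wild type in log2 intensity, with its 95% interval from limma; Plvap is drawn in red. All 10 intervals include zero, and the points lie between -0.17 and 0.12.

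Vessel content per array was described by centring each marker on its own mean over the 6 arrays and averaging the 10. The result was 0.02, -0.14 and 0.07 in 5XFAD, against 0.03, 0.01 and 0.00 in wild type. Means were -0.01 ± 0.11 and 0.01 ± 0.02 (SD, n = 3 each). The groups thus differed by -0.03, while single arrays spanned 0.20, all of it among the 5XFAD arrays. 5XFAD replicate 2 was the lowest of the 6 arrays for 7 of the 10 markers (Pecam1, Cdh5, Plvap, Emcn, Tie1, Eng and Vwf) and the highest for 0. 5XFAD replicate 3 was the highest for 4 (Pecam1, Cdh5, Tie1 and Egfl7). Among wild-type arrays, replicate 3 was the highest for Eng, Vwf and Ramp2, and replicate 2 for Plvap and Esam. The mean of all genes spanned 0.01, but the normalization brings arrays to a common distribution, so that this mean could not show a low array.

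**Figure D3:**
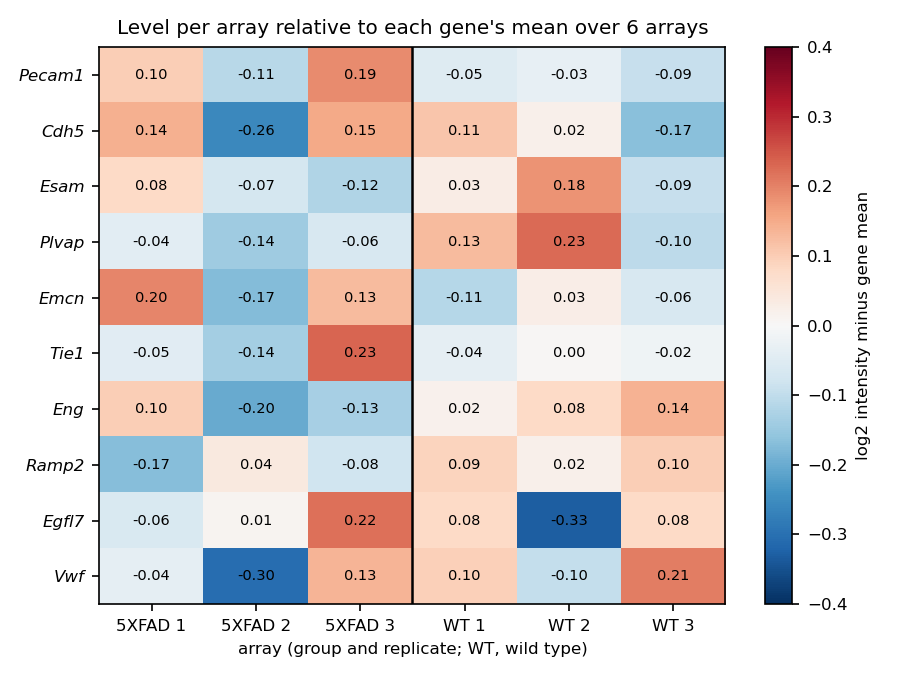
Log2 intensity of each marker in each array minus that marker's mean over the 6 arrays, with 5XFAD arrays left of the line and wild type right of it. The 5XFAD replicate 2 column is the lowest for 7 of 10 markers, and no marker separates the groups.

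The markers did not vary as 1 block. Their SD over the 6 arrays lay between 0.106 (Ramp2) and 0.188 (Vwf), against a median of 0.150 over all genes, which places them between the percentiles 23.4 and 69.3 of all genes. Distance from the markers' mean profile, as a root mean square over 6 arrays, was smallest for Pecam1 (0.079) and Tie1 (0.080) and largest for Egfl7 (0.171) and Ramp2 (0.131). Among 18132 other genes that varied at least as much as the mean profile, the nearest profiles were those of Syn3, Senp5, Cabin1, Cpsf6 and Dop1a, none of them a gene of the vessel lists. Nearest to Plvap among 10257 genes were Tbl1xr1, Klhl2, Sik1, Sema4a and Ctdspl. With 6 arrays and this many genes a close profile is a description of these arrays alone.

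Other endothelial genes, in a list of 28 pan-endothelial genes of which 27 were measured, gave a similar picture. In limma 0 passed the adjusted threshold and 1 was under an unadjusted p of 0.05, against 6.28% of all genes. There were 11 positive and 16 negative differences, with a median of -0.04. The list contained the VEGF receptor gene Kdr, the claudin gene Cldn5 and the ETS factor gene Erg. Some of its genes also stand in lists below, among them Kdr, Cldn5, Calcrl, Tek, Acvrl1 and Ptprb, so that the lists are not independent. The mean centred level of the pan-endothelial list was 0.07, -0.11 and 0.00 in 5XFAD, against -0.05, 0.05 and 0.04 in wild type. 5XFAD replicate 2 was thus lowest here too. S1pr1, the sphingosine-1-phosphate receptor gene that steadies endothelial junctions, had 8.01, 7.92 and 7.80 in 5XFAD and 8.18, 8.17 and 8.13 in wild type. These groups stood apart, and the difference of -0.25 ± 0.10 did not pass (limma, unadjusted p = 0.0338, Benjamini-Hochberg adjusted p = 0.75). She, an adaptor gene, differed by -0.20 ± 0.11, Erg by 0.28 ± 0.16 and Myct1 by 0.12 ± 0.10, with limma Benjamini-Hochberg adjusted p-values of 0.863, 0.892 and 0.932 in the same order.

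Genes of fenestrated and capillary endothelium gave 0 of 8 past the adjusted threshold and 0 under an unadjusted p of 0.05 (limma). Of the 8, 7 had a negative difference, while 47.2% of all genes had a positive one. The median was -0.07, and several of the 7 lay well within their SE. Among these were Vwa1 (-0.00 ± 0.12) and Ehd3 (-0.04 ± 0.21), named after their values were seen. Rgcc, a cell cycle regulator of endothelium, had 7.23, 7.38 and 7.46 in 5XFAD and 7.87, 7.45 and 7.50 in wild type (-0.25 ± 0.13, limma, Benjamini-Hochberg adjusted p = 0.864). Gpihbp1, which anchors lipoprotein lipase on capillary endothelium, differed by -0.17 ± 0.10 (0.897), and Esm1, a secreted proteoglycan of endothelial tip cells, by 0.09 ± 0.13 (0.964). Car4, the carbonic anhydrase gene of the choriocapillaris, was chosen after its values were seen and had 6.20, 6.16 and 6.13 in 5XFAD and 5.97, 6.38 and 6.33 in wild type.

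Genes that mark barrier endothelium, as in retinal and brain vessels, included the widest differences of the endothelial lists apart from that of the lymphatic gene Reln. Over its 15 genes 0 passed the adjusted threshold, 3 were lower at an unadjusted p under 0.05 (limma; 3.39% of all genes were lower at that level), and the median was 0.08. Slco1c1, a thyroid hormone transporter, had 9.29, 9.03 and 9.40 in 5XFAD, against 9.80, 10.33 and 10.37 in wild type (-0.92 ± 0.17, limma, Benjamini-Hochberg adjusted p = 0.169). Mfsd2a, which carries lysophospholipids with docosahexaenoic acid, had 7.19, 7.08 and 7.21 in 5XFAD, against 7.69, 7.87 and 7.65 in wild type (-0.57 ± 0.10, limma, Benjamini-Hochberg adjusted p = 0.174). The third, Slco1a4, an organic anion transporter named after its values were seen, differed by -0.46 (limma, Benjamini-Hochberg adjusted p = 0.589). In all 3, which were picked by their small p, the 5XFAD arrays lay below every wild-type array. Over the 15 genes the groups stood apart for these 3 below and 1 above, against 11.3% of all genes in either direction. There were 10 positive and 5 negative differences. Abcb1a, the gene of the efflux pump P-glycoprotein, stood apart in the other direction, with a difference of 0.23 ± 0.11 (limma, Benjamini-Hochberg adjusted p = 0.831), and the junction gene Cgnl1 differed by 0.22 ± 0.17 with overlapping groups. Cldn5, chosen after its values were seen as the defining claudin of barrier vessels, differed by 0.08. The glucose transporter gene Slc2a1, named after its values were seen, differed by 0.01 ± 0.12. In rodents the RPE is known to make Slco1c1, Mfsd2a and Slco1a4 as well. The list of 11 RPE genes had means of 10.45, 10.41 and 10.59 in 5XFAD and 10.80, 10.93 and 10.88 in wild type. Of the 11 differences 10 were negative, while 47.2% of all genes had a positive one. The groups stood apart for 8, against 11.3% of all genes. The part of RPE content in the transporter differences was not tested.

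Arterial, venous and lymphatic lists also had 0 genes past the adjusted threshold (limma, 0, 0 and 1 under an unadjusted p of 0.05, against 6.28% of all genes). Their medians were -0.10, -0.01 and -0.08 over 10, 8 and 6 measured genes. All 5XFAD arrays lay above wild type for 1 arterial gene and below it for 2, and below it for 2 lymphatic genes. In the venous list 0 stood apart, and over all genes 11.3% did in either direction. Hey1, a Notch target of arterial cells, differed by 0.17 ± 0.10 and Gkn3, an arterial gene of the brain, by -0.26 ± 0.13, both with the groups apart. Venous genes such as Nr2f2 (-0.13 ± 0.11) and the P-selectin gene Selp (0.12 ± 0.12) overlapped between groups. Among lymphatic genes, the hyaluronan receptor gene Lyve1 differed by -0.27 ± 0.12 with the groups apart (limma, unadjusted p = 0.0499, Benjamini-Hochberg adjusted p = 0.796). Macrophages of the eye wall also make Lyve1. Reln, which is made by many other cells, had 9.05, 8.95 and 9.15 in 5XFAD and the widely spread values 7.96, 9.28 and 6.90 in wild type.

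Ligands, co-receptors and targets that work with the markers were all measured, 22 of 22. In limma 0 passed the adjusted threshold, 10 differences were positive and 12 negative, and the median was -0.02. For Ramp2, the receptor Calcrl differed by -0.04 ± 0.13 and its ligand gene Adm by 0.28 ± 0.15, with 6.88 ± 0.25 in 5XFAD and 6.59 ± 0.20 in wild type (SD, n = 3 each; limma, Benjamini-Hochberg adjusted p = 0.869). Ramp1 and Ramp3, which lend Calcrl other ligand preferences, differed by 0.03 ± 0.12 and -0.06 ± 0.09. For Tie1, the receptor Tek differed by -0.05 ± 0.15, and its ligand genes Angpt1 and Angpt2 by 0.20 ± 0.19 and 0.04 ± 0.12. For Eng, the receptor genes Acvrl1 and Bmpr2 differed by -0.06 ± 0.11 and -0.26 ± 0.14. Id3, a target of BMP signalling that blocks bHLH factors, was the single partner under an unadjusted p of 0.05, against 6.28% of all genes. It had 9.19 ± 0.10 in 5XFAD and 8.84 ± 0.13 in wild type, with the groups apart. The difference of 0.35 ± 0.11 did not pass (limma, unadjusted p = 0.0106, Benjamini-Hochberg adjusted p = 0.622), and its relative Id1 differed by 0.12 ± 0.11. For Cdh5, the catenin genes Ctnnb1, Ctnnd1 and Jup differed by 0.04 ± 0.09, -0.12 ± 0.12 and -0.15 ± 0.11, and the phosphatase gene Ptprb by -0.14 ± 0.16. For Vwf, its protease gene Adamts13 differed by -0.11 ± 0.14 and F8, the clotting factor that it carries, by -0.00 ± 0.12.

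**Figure D4:**
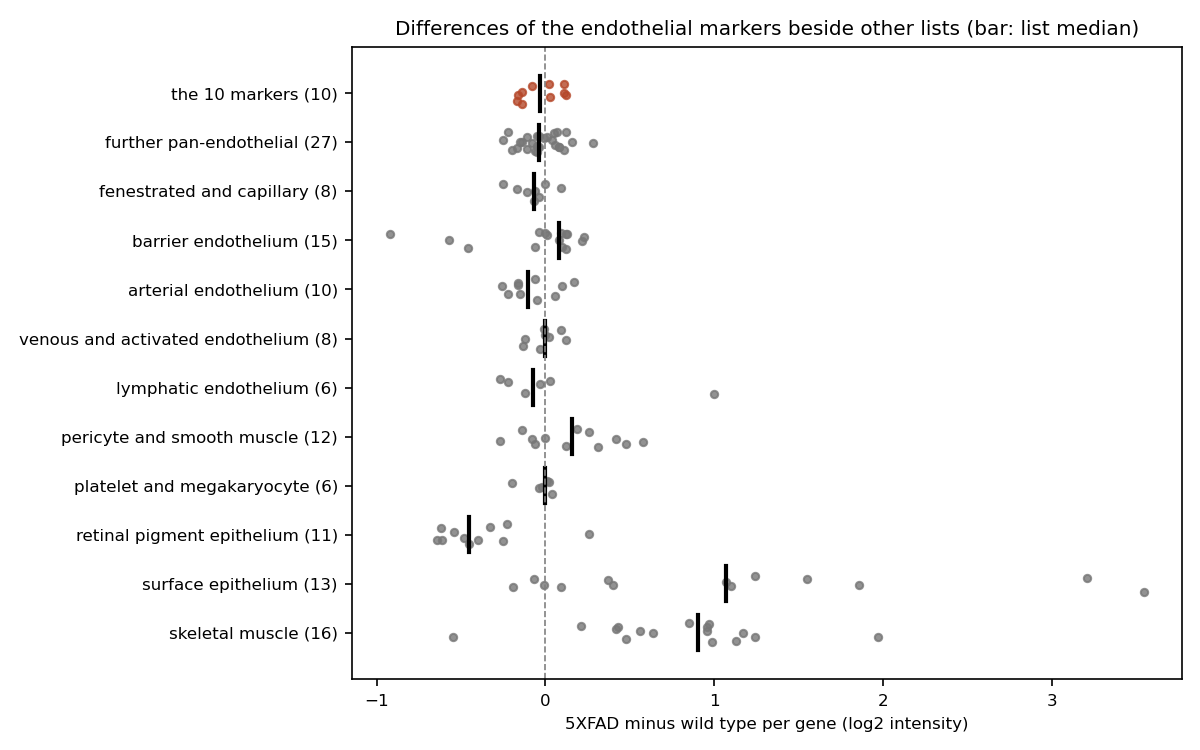
Difference of each gene, 5XFAD minus wild type in log2 intensity, for the 10 markers (red) and 11 other lists, with the number of measured genes in brackets and the list median as a bar. The markers and most vessel lists lie around zero, while RPE genes lie mostly below it and surface epithelium and skeletal muscle genes mostly above it.

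Levels of other cell types of the dissection also varied between these arrays. Skeletal muscle and rod content were entered in the fit in turn, while the part of the other cell types in the values above was not tested. Mural cells, which wrap the endothelium, had a list median of 0.16 over 12 genes, with 8 positive and 4 negative differences. At an unadjusted p under 0.05 (limma) 3 were higher and 1 lower, against 6.28% of all genes in either direction. The smooth muscle genes Myh11 (0.48 ± 0.18) and Tagln (0.42 ± 0.17) were positive and the pericyte channel gene Abcc9 (-0.27 ± 0.11) negative, none past the adjusted threshold (limma, Benjamini-Hochberg adjusted p = 0.723, 0.752 and 0.735). Pericyte genes went both ways. Pdgfrb and Rgs5, named after their values were seen, differed by 0.19 and 0.12, and Cspg4 by -0.14. The array lowest in endothelial markers, 5XFAD replicate 2, was the highest for Myh11, at 10.01 against 9.20 and 9.52 in the other 5XFAD arrays and 9.08, 9.13 and 9.10 in wild type. Tagln was also highest in 5XFAD replicate 2, at 9.35. So were the smooth muscle genes Acta2 (11.71) and Cnn1 (8.19), named after their values were seen. The same array was the lowest for Abcc9, at 8.93. Abcc9 was at 9.21 and 9.10 in the other 5XFAD arrays and at 9.32, 9.35 and 9.39 in wild type. These smooth muscle genes thus shared their highest array, while the mural list as a whole did not share 1 pattern. Platelet genes, which matter because platelets carry Vwf, Pecam1 and Esam, had list means of 5.91, 6.0 and 5.84 in 5XFAD and 6.14, 5.79 and 5.92 in wild type over 6 of 8 genes measured, with 0 past the adjusted threshold and 0 under an unadjusted p of 0.05 (limma). The surface epithelium list had means of 6.62, 6.98 and 7.21 in 5XFAD and 5.83, 5.88 and 5.82 in wild type, and the skeletal muscle list 7.70, 6.78 and 6.33 in 5XFAD and 5.62, 5.76 and 7.10 in wild type. Median differences of these lists were 1.07 over 13 genes and 0.90 over 16 genes, and that of RPE genes was -0.45 over 11, beside -0.03 for the 10 endothelial markers. Of the 13 surface epithelium genes 4 passed the adjusted threshold (limma), all higher in 5XFAD, against 0.0225% of all genes. They were the keratin genes Krt4, Krt13, Krt15 and Krt6a, named after their values were seen. In the skeletal muscle and RPE lists 0 passed. With skeletal muscle content (the list mean) entered in the fit, 0 markers passed the adjusted threshold. The Plvap difference was then -0.09 ± 0.13 (limma, Benjamini-Hochberg adjusted p = 0.954) and that of Eng -0.25 ± 0.13 (limma, Benjamini-Hochberg adjusted p = 0.806), beside -0.17 and -0.16 without it. With rod content in the fit they were -0.18 ± 0.12 and -0.14 ± 0.12, and again 0 markers passed (limma).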

How the data were processed

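Total RNA of RPE, choroid and sclera was turned into biotinylated cDNA for Affymetrix arrays, per the labels' protocols. The authors deposited log2 intensities, normalized, for 33793 probe sets, and the submitters' processing notes name Affymetrix Expression Console 1.1 and RMA. RMA subtracts a background, brings arrays to a common distribution and combines the probes of a set, and remaining background compresses differences of dim genes. Genome build, filters and pooling are not given in the sources used. The number of arrays, 3 per group, limits the precision.

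Probe sets were named through the platform annotation (23521 with 1 symbol, 1814 with several, 8458 with none there), and none with several symbols was used. For the 1082 genes with several probe sets, the one of highest mean over 6 arrays was kept. Groups and replicate numbers came from the sample titles. A two-sided limma fit (3.58.1, R 4.3.3) of group alone was run with lmFit and eBayes on all 22180 genes. It had 4 residual degrees of freedom and 5.23 from the prior, and p-values were adjusted by Benjamini-Hochberg over the whole table. Intervals are 95% intervals from the moderated fit. The fit was also run on simulated data in which the added differences were larger than those of the markers. That run does not tell how often differences of the markers' size would be found.

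The markers, lists and tests were chosen with earlier results of these data known. Named genes are the 10 markers, the partner list, up to 2 genes per direction of smallest p in each vessel list, and the 5 genes of nearest profile that are not predicted genes. Further names are marked where they stand as chosen after their values were seen. Lists are described by counts and medians, without a test. Promoter and microRNA sequences come from RefSeq (GRCm38.p6). Same-numbered arrays were checked for pairing by the correlation of their deviations from group means.

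Alternatives were the replicate number as block, genes above the dimmest 30% or 50% only, quantile normalization, array weights, arrays centred on medians, a robust trended prior, other treatments of multiple probe sets, tissue covariates and each array left out.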

Additional observations from a re-analysis of the deposited data

How the results depend on the processing

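Under all 17 alternatives 0 of the 10 markers passed the adjusted threshold, and the lowest adjusted p among them was 0.767 (limma, Benjamini-Hochberg, Vwf without wild type replicate 2). The only unadjusted p under 0.05 was that of Plvap without wild type replicate 3. The median difference of the markers lay between -0.04 and 0.00 under the other alternatives and between -0.07 and 0.05 with each array left out. Plvap minus the other markers was computed under fewer settings, and not with the block, array weights, filters, another prior or tissue covariates. It lay between -0.16 and -0.14 with quantile normalization, median centring, the mean of all probe sets or another endothelial reference. With each array left out it lay between -0.25 and -0.07. The signs of 3 uncalled markers turned. Cdh5 was -0.02 with array weights, -0.04 without 5XFAD replicate 1, -0.05 and -0.06 when 5XFAD replicate 3 or wild type replicate 3 was left out, and at most 0.16 (without 5XFAD replicate 2). With arrays left out Tie1 ran from -0.08 (5XFAD replicate 3 omitted) to 0.11, and Egfl7 from -0.02 (wild type replicate 2 omitted) to 0.18. Over the whole table, 5 genes passed in the fit described above, 4 of them in the surface epithelium list. The count was 8 without the dimmest 30% of genes, with array weights and with the rod list as a covariate, 9 with median centring and with a trended and robust prior, and between 3 (without wild type replicate 3) and 19 (without wild type replicate 2) with each array left out. Without the dimmest 50% of genes the count was 6. The cause of these changes was not tested. The deviations of same-numbered arrays from their group means correlated at -0.06, -0.05 and 0.13. With 3 arrays per group this check cannot exclude a common source or batch, and the sample titles give only the number. With the replicate block 6 genes and 0 markers passed (limma, Benjamini-Hochberg), and the Plvap difference was -0.17.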
